A study of Homo sapiens with 14 samples.

Results

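The neurotrophin, GDNF and ALK receptors are 9 genes, NGFR, NTRK2, NTRK3, RET, GFRA1, GFRA2, GFRA3, ALK and LTK, chosen by gene symbol from the 17810 genes of one count table and the 19143 genes of another. All 9 were found in both tables, each under 1 identifier. RNA-seq was analysed from CHP-134, an established human neuroblastoma line with MYCN amplification, in 4 groups. The EGFP and OmoMYC groups (n = 3 each) are separately transduced lines, in which a lentiviral Tet-On construct expresses EGFP or OmoMYC. Both lines were selected with G418, kept in Tet-approved serum and given 1 µg/ml doxycycline for 3 days. OmoMYC is an altered piece of MYC, its dimerization region, and blocks MYC family proteins by pairing with them and with their partners. The DMSO and dTAG47 groups (n = 4 each) are parental cells without a transgene, treated for 18 h with vehicle or with 500 nM dTAG47, a degrader of proteins that carry an FKBP12(F36V) tag. Parental cells carry no such tag, so the comparison covers effects of the compound itself. Each inducible line is 1 transduced population, so the line and the expressed protein cannot be told apart.

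NGFR, the low-affinity neurotrophin receptor, binds every neurotrophin and has no kinase domain, while NTRK2 (TrkB) and NTRK3 (TrkC) are the receptor tyrosine kinases for BDNF and NT-4 and for NT-3. RET is the receptor tyrosine kinase of the GDNF family and is engaged through the lipid-anchored coreceptors GFRA1, GFRA2 and GFRA3, which prefer GDNF, neurturin and artemin. ALK and LTK are sister receptor tyrosine kinases that share the ALKAL ligands. Each of these families acts in the neural crest lineage that gives rise to sympathetic neurons and neuroblastoma, and ALK is a known site of activating mutation in that tumour.

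The EGFP and OmoMYC libraries hold 28060817 to 38358128 counts and the parental libraries 40861430 to 53451641. Sympathetic neuroblast markers summed to 2017 to 2448 CPM (counts scaled to a common library size after TMM) in the libraries of the 2 lines and to 2156 to 2324 CPM in parental cells. TH and DBH, enzymes of catecholamine synthesis, were at most 1.16 CPM in any group mean. Schwann cell markers summed to 7.51 to 10.6 CPM in the libraries of the 2 lines, 9.59 to 10.2 CPM under DMSO and 11.7 to 15.0 CPM under dTAG47. Blood or endothelial markers summed to 0.908 to 2.17 CPM over all libraries. MYC, whose gene counts can include reads of the OmoMYC transgene, had 16 to 20 counts in the EGFP libraries and 15040 to 20295 in the OmoMYC libraries, matching the labels.

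RefSeq start regions (GRCh38.p14, 250 bases before to 50 bases after the start) are shown for the sister kinases ALK and LTK, which moved in opposite directions under OmoMYC. Capitals mark CANNTG, the general E-box in which MYC proteins and other basic helix-loop-helix factors bind, found on both strands because its reverse complement has the same form. The first ALK region lies on the minus strand at chr2:29921537-29921836, the second, from another annotated start, at chr2:29223774-29224073 on the same strand, and the LTK region at chr15:41513778-41514077 on the minus strand.
ALK start 1: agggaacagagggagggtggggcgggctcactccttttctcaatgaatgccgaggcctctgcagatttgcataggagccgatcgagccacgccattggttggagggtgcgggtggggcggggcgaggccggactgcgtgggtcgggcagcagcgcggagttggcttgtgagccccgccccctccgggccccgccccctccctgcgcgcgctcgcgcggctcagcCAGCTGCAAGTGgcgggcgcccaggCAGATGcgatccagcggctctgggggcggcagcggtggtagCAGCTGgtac
ALK start 2: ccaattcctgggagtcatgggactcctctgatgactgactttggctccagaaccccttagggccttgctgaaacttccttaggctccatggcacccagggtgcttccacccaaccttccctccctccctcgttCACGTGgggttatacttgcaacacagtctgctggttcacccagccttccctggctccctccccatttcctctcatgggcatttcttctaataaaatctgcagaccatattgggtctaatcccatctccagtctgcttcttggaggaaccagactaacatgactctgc
LTK start: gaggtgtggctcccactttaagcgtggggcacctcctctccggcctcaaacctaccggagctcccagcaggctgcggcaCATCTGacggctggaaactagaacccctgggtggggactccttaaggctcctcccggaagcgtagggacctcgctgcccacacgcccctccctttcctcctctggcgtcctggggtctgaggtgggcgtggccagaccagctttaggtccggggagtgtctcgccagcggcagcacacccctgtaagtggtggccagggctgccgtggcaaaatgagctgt
The first ALK region holds 4 CANNTG matches, 2 of them adjoining, and none is the canonical E-box CACGTG. The second ALK region holds 1 match, a CACGTG at position -117 from the start. LTK holds 1 match, at position -171, which is not CACGTG. Of 35116 regions of this length, 68.7% held CANNTG and 7.26% held CACGTG. Start regions of GFRA3, NTRK2, RET, GFRA1 and NTRK3 were also read, and none of them held CACGTG. Those of NGFR and GFRA2 were not read. A match describes letters only, and neither binding nor the use of either ALK start was measured in these data.

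OmoMYC against EGFP asks which transcripts differ when MYC proteins are opposed by OmoMYC. Of the 9 receptors, 7 were called changed by edgeR's quasi-likelihood test at an adjusted p (FDR, Benjamini-Hochberg over 13803 tested genes) below 0.05, 3 of them higher (NGFR, LTK and GFRA3) and 4 lower (ALK, GFRA1, NTRK3 and NTRK2). RET and GFRA2 were not called. The background was high, since 53.0% of all tested genes were called, 27.3% as higher and 25.7% as lower. The values of the groups did not overlap for 8 of the 9 receptors, against 62.3% of tested genes. The median log2 fold change of the 9 was 0.05, and that of all tested genes 0.01. DESeq2 and limma-voom also called 7 of the 9.

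**Figure D1:**
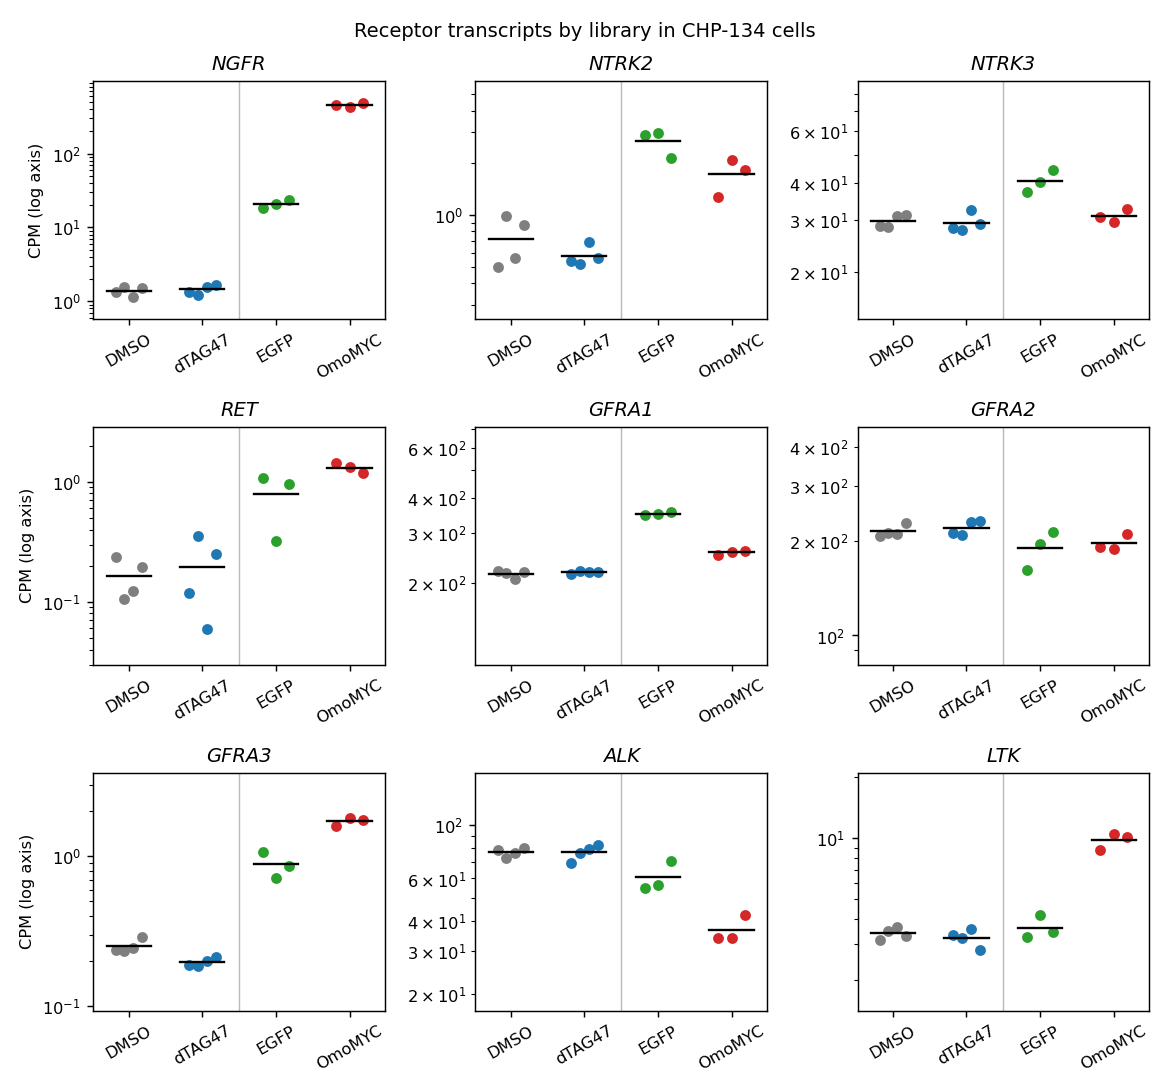
CPM of each receptor transcript (log axis) in every library of the DMSO, dTAG47, EGFP and OmoMYC groups, with points for libraries and bars for group means. The grey line parts the 2 count tables, which were normalized separately. In the OmoMYC libraries NGFR lies between 425 and 481 CPM, against 18.2 to 23.6 in the EGFP libraries, while DMSO and dTAG47 points overlap for every gene except GFRA3.

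NGFR rose 21.7-fold. It lies at chr17:47572655-47592370 on the plus strand (GRCh37). The EGFP replicates 1, 2 and 3 had 18.2, 20.7 and 23.6 CPM (577 to 685 counts), and the OmoMYC replicates 449, 425 and 481 CPM (13181 to 16363 counts). Every OmoMYC library stood far above every EGFP library, and the spread within each group was small beside the difference. The means were 20.8 ± 2.68 and 452 ± 28.2 CPM (SD, n = 3), a log2 fold change of 4.44 (SE 0.10, 95% interval 4.21 to 4.67, adjusted p = 4.25e-10). By log2 fold change NGFR ranked 54 from the highest rise among the tested genes. By level per kb of exon it moved from rank 6603 to rank 220 of 13499 genes. The annotation places 202 exonic bases of NGFR-AS1 and 924 bases of an unconfirmed transcript on the opposite strand, and as strand use in the counting is not given in the sources used here, their reads and those of NGFR cannot be told apart.

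The kinase receptors of the neurotrophins moved the other way by small amounts. NTRK3 (chr15:88402982-88800022, minus strand) had 37.4, 40.5 and 44.3 CPM in the EGFP replicates and 30.8, 29.7 and 32.8 CPM in the OmoMYC replicates. The groups did not overlap, and NTRK3 fell by 0.39 on the log2 scale (SE 0.09, 95% interval -0.58 to -0.20, adjusted p = 0.00378). NTRK2 (chr9:87283290-87710666, plus strand) was scarce, with 2.90, 2.97 and 2.13 CPM in the EGFP libraries and 1.26, 2.08 and 1.81 CPM in the OmoMYC libraries. The nearest libraries of the groups, at 2.13 and 2.08 CPM, almost met. Its log2 fold change was -0.62 (SE 0.21, 95% interval -1.09 to -0.15, adjusted p = 0.0304). This call rested on single libraries, since it was lost without EGFP replicate 2 (-0.57, adjusted p = 0.0942), OmoMYC replicate 1 (-0.45, adjusted p = 0.108) or OmoMYC replicate 3 (-0.68, adjusted p = 0.0566). NGFR transcript per kb exceeded that of NTRK3 by 3.30 ± 0.145 times in EGFP cells and by 93.9 ± 1.14 times in OmoMYC cells (SD, n = 3).

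Among the GDNF receptors, the 2 abundant coreceptors differed in response. GFRA1 (chr10:117816436-118036315, minus strand) had 347, 350 and 355 CPM in the EGFP libraries and 251, 258 and 259 CPM in the OmoMYC libraries. Both groups were tight and clearly apart. GFRA1 fell by 0.45 on the log2 scale (SE 0.06, 95% interval -0.58 to -0.32, adjusted p = 0.000129), which is 1.37-fold. On the opposite strand 421 exonic bases belong to a long noncoding RNA gene, whose reads and those of GFRA1 cannot be told apart. GFRA2 (on chromosome 8) had 161, 196 and 213 CPM in the EGFP libraries and 191, 189 and 210 CPM in the OmoMYC libraries, all within the EGFP range. Its log2 fold change was 0.05 (SE 0.10, 95% interval -0.17 to 0.27, adjusted p = 0.691), so a rise above 1.203-fold and a fall above 1.123-fold lie outside the interval. The ratio of GFRA1 to GFRA2 per kb was 1.01 ± 0.138 in EGFP cells and 0.708 ± 0.0361 in OmoMYC cells (SD, n = 3).

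GFRA3, the artemin coreceptor (chr5:137588069-137610310, minus strand), rose from a low level. It had 34, 20 and 25 counts in the EGFP libraries and 47, 70 and 53 in the OmoMYC libraries. These correspond to 0.883 ± 0.179 and 1.72 ± 0.109 CPM, a log2 fold change of 0.95 (SE 0.21, 95% interval 0.49 to 1.42, adjusted p = 0.00344). RET (chr10:43572512-43625799, plus strand), the kinase these coreceptors serve, was scarce. The EGFP libraries had 34, 9 and 28 counts and the OmoMYC libraries 42, 51 and 36. In CPM the OmoMYC libraries were all above the EGFP libraries, but EGFP replicate 2, at 0.322 CPM, stood well below the other two at 1.07 and 0.964. Its log2 fold change of 0.72 (SE 0.33, 95% interval -0.02 to 1.45) did not pass the test, with an adjusted p of 0.0904. Single libraries decided its size, since it was 0.34 without EGFP replicate 2 (adjusted p = 0.271) and 1.00 without EGFP replicate 1 (adjusted p = 0.0223). The transcripts of GFRA1, GFRA2 and GFRA3 together exceeded RET per kb by 511 to 1871 times in the EGFP libraries and by 361 to 467 times in the OmoMYC libraries.

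The sister kinases ALK and LTK changed in opposite directions. ALK spans 729 kb at chr2:29415640-30144452 on the minus strand. Its level was 54.8, 56.5 and 70.9 CPM in the EGFP libraries and 34.0, 34.0 and 42.3 CPM in the OmoMYC libraries. The highest OmoMYC library lay below the lowest EGFP library. ALK fell by 0.72 on the log2 scale (SE 0.12, 95% interval -0.99 to -0.46, adjusted p = 0.000619), or 1.65-fold. ALK exons overlap CLIP4 by 135 bases on the opposite strand, and CLIP4 itself was at -0.08 on the log2 scale (adjusted p = 0.577). LTK (chr15:41795835-41806085, minus strand) had 3.25, 4.19 and 3.44 CPM in the EGFP libraries and 8.80, 10.5 and 10.1 CPM in the OmoMYC libraries. LTK rose in every OmoMYC library relative to every EGFP library, by 1.44 on the log2 scale (SE 0.13, 95% interval 1.15 to 1.74, adjusted p = 1.48e-05), which is 2.72-fold. ALK remained the more abundant of the pair, but its ratio to LTK per kb was 8.03 ± 1.68 in EGFP cells and 1.78 ± 0.228 in OmoMYC cells (SD, n = 3).

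**Figure D2:**
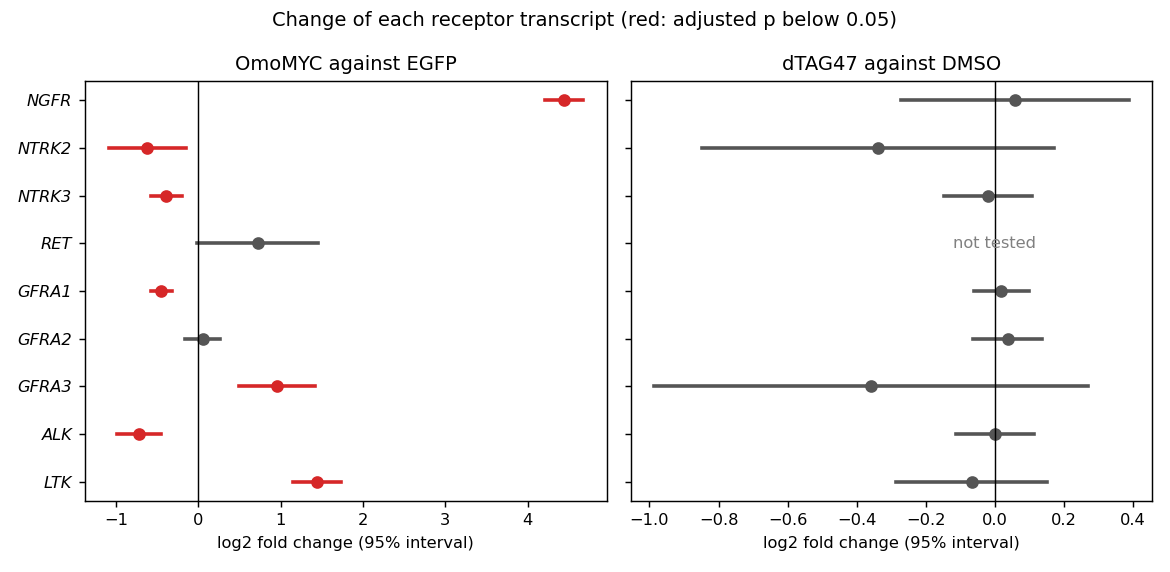
Log2 fold change of each receptor with its 95% interval from the quasi-likelihood fit, for OmoMYC against EGFP (left) and dTAG47 against DMSO (right, on a narrower axis). Red marks an adjusted p below 0.05. NGFR stands at 4.44 and LTK at 1.44 on the left, ALK at -0.72, and every tested interval on the right spans 0.

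Markers of other cell types were examined beside these changes. The counts of called markers stand against a background of 27.3% of all tested genes called higher and 25.7% called lower. Schwann cell markers, relevant because Schwann cells carry NGFR, summed to 7.51 to 10.6 CPM in the EGFP libraries and 9.07 to 9.73 CPM in the OmoMYC libraries, and 1 of the 6 tested rose (FOXD3) while 1 fell (CDH19). SOX10 was at 0.855 CPM in EGFP and 0.851 CPM in OmoMYC cells, and S100B had 0 to 9 counts in any of these libraries. Mesenchymal markers summed to 419 to 433 CPM in the EGFP libraries and 343 to 372 CPM in the OmoMYC libraries, with 3 of 9 higher and 3 of 9 lower. Blood or endothelial markers summed to 1.29 to 1.90 and 0.908 to 1.38 CPM, with 2 of 3 tested markers lower. Sympathetic neuroblast markers summed to 2017 to 2309 CPM in the EGFP libraries and 2350 to 2448 CPM in the OmoMYC libraries, with 7 of 14 higher and 2 of 14 lower. The part of these shifts in the receptor changes was not tested, and in bulk RNA fewer cells of a type and less RNA per cell cannot be told apart.

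The order of the receptors by level was taken from CPM per kb of merged exons. In parental cells under DMSO the order was GFRA2 (37.2), GFRA1 (20.2), ALK (10.4), NTRK3 (1.12), LTK (0.972), NGFR (0.335), GFRA3 (0.127), NTRK2 (0.0219) and RET (0.0184). Only the last pair overlapped between neighbours. The order under dTAG47 differed solely in that overlapping pair. In EGFP cells GFRA1 (32.93) and GFRA2 (32.92) overlapped, followed by ALK (8.23), NGFR (5.03), NTRK3 (1.52), LTK (1.04), GFRA3 (0.444) and the overlapping RET (0.0876) and NTRK2 (0.0805). In OmoMYC cells NGFR (109) came first, followed by GFRA2 (34.1), GFRA1 (24.1), ALK (4.98), LTK (2.81), NTRK3 (1.16), GFRA3 (0.865), RET (0.146) and NTRK2 (0.0517), with no overlap between neighbours. NTRK2 and NTRK3 have merged lengths of 33162 and 26773 bases over 58 and 19 annotated transcripts, which lowers their values. With the length of the canonical transcript, the order changed only where NTRK2 and RET swapped.

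**Figure D3:**
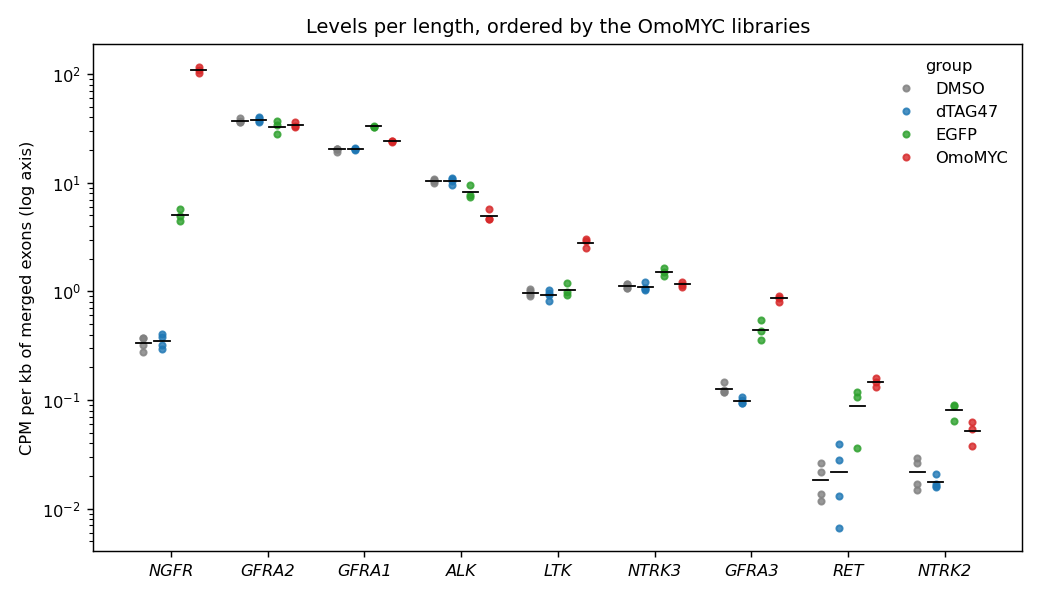
CPM per kb of merged exons (log axis) of each receptor in each library, ordered by the OmoMYC group, with points for libraries and bars for group means. DMSO and dTAG47 come from one table and EGFP and OmoMYC from the other. NGFR ranks 4 in the EGFP libraries (mean 5.03) and 1 in the OmoMYC libraries (mean 109).

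NGFR made up 6.10% ± 0.295 of the summed per-kb level of the 9 receptors in EGFP cells and 61.5% ± 0.870 in OmoMYC cells (SD, n = 3). GFRA1 and GFRA2 together made up 80.1% ± 0.878 and 32.8% ± 0.714. In parental cells the shares under DMSO and dTAG47 were 0.475% ± 0.0586 and 0.488% ± 0.0510 for NGFR and 81.5% ± 0.456 and 81.9% ± 0.488 for the coreceptor pair (SD, n = 4). The EGFP line and the parental DMSO cells differ in transduction, selection, serum, doxycycline and count table, which cannot be told apart, so their values stand side by side without a test. NGFR was at 20.8 ± 2.68 CPM in EGFP cells and 1.39 ± 0.192 in DMSO cells. GFRA1 was at 351 ± 3.98 and 216 ± 6.40 CPM, GFRA2 at 190 ± 26.5 and 215 ± 9.69, and ALK at 60.7 ± 8.81 and 77.0 ± 3.06. RET was at 0.786 ± 0.405 and 0.165 ± 0.0617 CPM and GFRA3 at 0.883 ± 0.179 and 0.252 ± 0.0266. LTK was at 3.63 ± 0.496 and 3.39 ± 0.228 CPM, NTRK3 at 40.7 ± 3.46 and 29.9 ± 1.48, and NTRK2 at 2.67 ± 0.464 and 0.727 ± 0.234. The same symbol was not always counted alike in the tables. NCAM1 had 0 to 4 counts under one identifier and 248 to 471 under another in the OmoMYC table, against 15160 to 20985 under its only identifier in the parental table.

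dTAG47 against DMSO asks whether the compound alters transcripts in cells without the tagged protein. None of the 8 receptors that passed the filter was called by edgeR, DESeq2 or limma-voom, and 0 of the 8 had an unadjusted p below 0.05, the smallest being 0.177. The background was 0.159% of 14470 tested genes called, 0.117% as higher and 0.0415% as lower. A term for replicates 1 and 2 against 3 and 4 left the count at 0. RET was not tested, with 5 to 11 counts in the DMSO libraries and 3 to 19 in the dTAG47 libraries, ranges that overlap. Of the cell type markers, 1 of 6 tested Schwann cell markers was called higher (median log2 fold change of the 6, 0.26). Their sums under DMSO and dTAG47 did not overlap. No tested marker of the other lists was called. Any part of this shift in the receptor values was not tested.

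The abundant receptors gave narrow intervals. ALK had 78.7, 72.9, 76.4 and 79.9 CPM in the DMSO replicates and 69.8, 76.5, 79.2 and 82.3 CPM in the dTAG47 replicates, and the groups overlapped throughout. Its log2 fold change was 6.4e-05 with a 95% interval of -0.11 to 0.11. GFRA1 had 220, 218, 206 and 218 CPM in the DMSO replicates and 215, 221, 220 and 218 CPM in the dTAG47 replicates, a log2 fold change of 0.02 (95% interval -0.06 to 0.10). GFRA2 gave 0.04 (-0.06 to 0.14), NTRK3 -0.02 (-0.15 to 0.11) and LTK -0.07 (-0.29 to 0.15) on the same scale. For these 5 genes a change above 1.219-fold in either direction lies outside the interval.

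The scarce receptors gave wider ones. NGFR had 61, 73, 47 and 79 counts in the DMSO libraries and 57, 66, 79 and 86 in the dTAG47 libraries, a log2 fold change of 0.06 (95% interval -0.27 to 0.39). NTRK2 had 23 to 46 and 23 to 35 counts and gave -0.34 (-0.85 to 0.17). GFRA3 had 10 to 15 counts in the DMSO libraries and 8 to 11 in the dTAG47 libraries. In CPM it was the 1 receptor of 8 whose groups did not overlap, as 3.34% of tested genes did, with a log2 fold change of -0.36 (95% interval -0.99 to 0.27, adjusted p = 0.733). A change of the size of the NGFR rise in OmoMYC cells lies outside every tested interval, but falls of up to 1.80-fold in NTRK2 and 1.98-fold in GFRA3 could not be told from none at this depth.

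The other genes of these pathways were taken from 7 lists. In OmoMYC against EGFP 68 of the 121 tested pathway genes were called (56.2%, against 53.0% of all genes), 51 higher and 17 lower. Of all tested genes, 27.3% were called higher and 25.7% lower, the background for each list below. Of the neurotrophin ligands, BDNF, the ligand of NTRK2, fell by 0.84 on the log2 scale (4.62 ± 0.598 to 2.59 ± 0.486 CPM, adjusted p = 0.00200). NTF4, another NTRK2 ligand, rose by 1.12 from 0.539 to 1.18 CPM (adjusted p = 0.00528). NTF3 had 0 to 1 counts per library and was not tested. Of the neurotrophin receptor partners, 3 of 17 were higher and 2 lower (median 0.11). KIDINS220, a scaffold of Trk receptors and NGFR, rose by 0.74 (175 ± 3.63 to 293 ± 9.52 CPM, adjusted p = 6.90e-06). TRAF6, an adaptor that binds NGFR, rose by 0.34 (adjusted p = 0.00642), a call lost without EGFP replicate 2 or OmoMYC replicate 2 (adjusted p = 0.0545 and 0.0549). SORCS3, a sortilin family receptor, fell by 1.01, and RTN4R, the Nogo receptor that pairs with NGFR, fell by 0.36 (adjusted p = 0.00405 and 0.0106).

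Of 7 tested GDNF family ligands and other coreceptors, 4 were higher and 1 lower (median 0.73), against 27.3% and 25.7% of all tested genes. GDNF, the ligand of GFRA1, fell by 0.86 (1.93 ± 0.281 to 1.06 ± 0.0600 CPM, adjusted p = 0.00402). The GFRA3 ligand ARTN rose by 1.08 with 8 to 31 counts per library (adjusted p = 0.0228). PSPN, which encodes persephin, rose by 0.83 (5.50 ± 1.55 to 9.72 ± 0.195 CPM, adjusted p = 0.00293). SDC3, a heparan sulfate proteoglycan that binds GDNF, rose by 1.19 (79.6 ± 17.7 to 182 ± 12.6 CPM, adjusted p = 6.17e-05). GAS1, a protein related to the GFRA family, rose by 0.73 (adjusted p = 0.000167). NRTN, the GFRA2 ligand, gave -0.33 (adjusted p = 0.273) and NCAM1, an alternative GDNF signalling partner, 0.30 (adjusted p = 0.0691). The NCAM1 value is that of the identifier with 248 to 471 counts per library. The identifier that held 15160 to 20985 counts in parental cells had 0 to 4 here and was not tested. The ARTN call was lost on leaving out OmoMYC replicate 1 (adjusted p = 0.0760), OmoMYC replicate 3 (0.0731) or EGFP replicate 1 (0.0768), and NCAM1 was called without EGFP replicate 1 or OmoMYC replicate 1 (adjusted p = 0.00791 and 0.0445).

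Of 5 tested genes of the ALK and LTK ligands and the pleiotrophin system, 3 were higher and none lower (median 0.33). The background was 27.3% of all tested genes called higher and 25.7% lower. FAM150B, the ALKAL2 ligand of ALK and LTK, had 16 to 32 counts per library and gave -0.07 (adjusted p = 0.886). MDK, which encodes midkine, was abundant and rose by 0.39 (366 ± 56.2 to 480 ± 16.8 CPM, adjusted p = 0.00758). PTN, which encodes pleiotrophin, was scarce, with 1 to 17 counts per library, and gave 2.34 (0.0774 ± 0.0461 to 0.415 ± 0.0349 CPM, adjusted p = 0.00243). PTPRZ1, a receptor phosphatase that binds pleiotrophin, rose by 0.33 (adjusted p = 0.0137), and LRP1 gave 0.15 (adjusted p = 0.241). The MDK call was lost without OmoMYC replicate 3 (0.33, adjusted p = 0.0534), and its value was 0.25 without EGFP replicate 1. The PTPRZ1 call was lost without EGFP replicate 2 or OmoMYC replicate 2 (adjusted p = 0.0676 and 0.0967), and LRP1 was called without EGFP replicate 3 (0.24, adjusted p = 0.0237).

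Downstream of the receptors, 19 of 37 adaptors and effectors were higher and 4 lower (median 0.26). Over all tested genes 27.3% were called higher and 25.7% lower. DOK5, an adaptor of RET and the Trk receptors, rose by 4.80, from 6.77 ± 0.909 to 190 ± 29.0 CPM (adjusted p = 2.05e-09). Of the SHC family adaptors, SHC4 rose by 1.82, SHC2 by 1.75 and SHC3 by 1.46 (adjusted p = 8.44e-05, 6.07e-07 and 0.00266), while SHC1, named after its value was seen, gave 0.04 at a mean of 192 CPM in EGFP and 197 CPM in OmoMYC cells (adjusted p = 0.726). Of 10 ubiquitin ligases and phosphatases, 4 were higher and 2 lower (median -0.10). The phosphatase PTPRG fell by 0.45, the ubiquitin ligase CBLB rose by 0.34, the phosphatase PTPN1 rose by 0.30 and the ubiquitin ligase NEDD4L fell by 0.27 (adjusted p = 0.000386, 0.00827, 0.00270 and 0.00499). The CBLB call was lost without EGFP replicate 2 or OmoMYC replicate 1 (adjusted p = 0.0698 and 0.0527). Of 43 other receptor tyrosine kinases, 17 were higher and 7 lower (median 0.19). The ephrin receptors EPHA7, EPHA5 and EPHA10 rose by 2.23, 1.63 and 1.53, and LMTK3 rose by 1.44 (adjusted p = 3.25e-08, 5.32e-05, 9.59e-07 and 2.88e-05). DOK2, KDR and TIE1, chosen after their values were seen, were also called higher but had at most 3 counts in every EGFP library, so the size of their fitted change is not given.

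In parental cells 1 of 121 pathway genes was called after dTAG47, against 0.159% of all tested genes. An unadjusted p below 0.05 was found for 12 of the 121 (9.92%), against 7.28% of all tested genes (1053 of 14470). The called gene, DDR1, a collagen receptor, rose by 0.25 on the log2 scale (44.2 ± 1.47 to 52.7 ± 1.73 CPM, adjusted p = 0.0476), and its call was lost when any library except dTAG47 replicate 2 was left out (highest adjusted p = 0.244). BDNF gave -0.30 (3.32 ± 0.226 to 2.69 ± 0.190 CPM, adjusted p = 0.673) and GDNF 0.04 (adjusted p = 0.950). SDC3 gave 0.21 (64.2 ± 2.74 to 74.3 ± 2.89 CPM, adjusted p = 0.145) with groups that did not overlap, and it was called by DESeq2 (adjusted p = 0.0105) and with the factor for replicates 1 and 2 against 3 and 4 (adjusted p = 0.000180). With that factor MDK (0.13) and LRP1 (0.14) were called as well (adjusted p = 0.0164 and 0.0174), against 0.673 for each without it. The other tested ligands and coreceptors, NTF4, ARTN, PSPN, GDF15, NCAM1, NRTN, GAS1, PTN, PTPRZ1 and FAM150B, lay between -0.40 and 0.32 with adjusted p from 0.673 to 0.980.

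**Figure D4:**
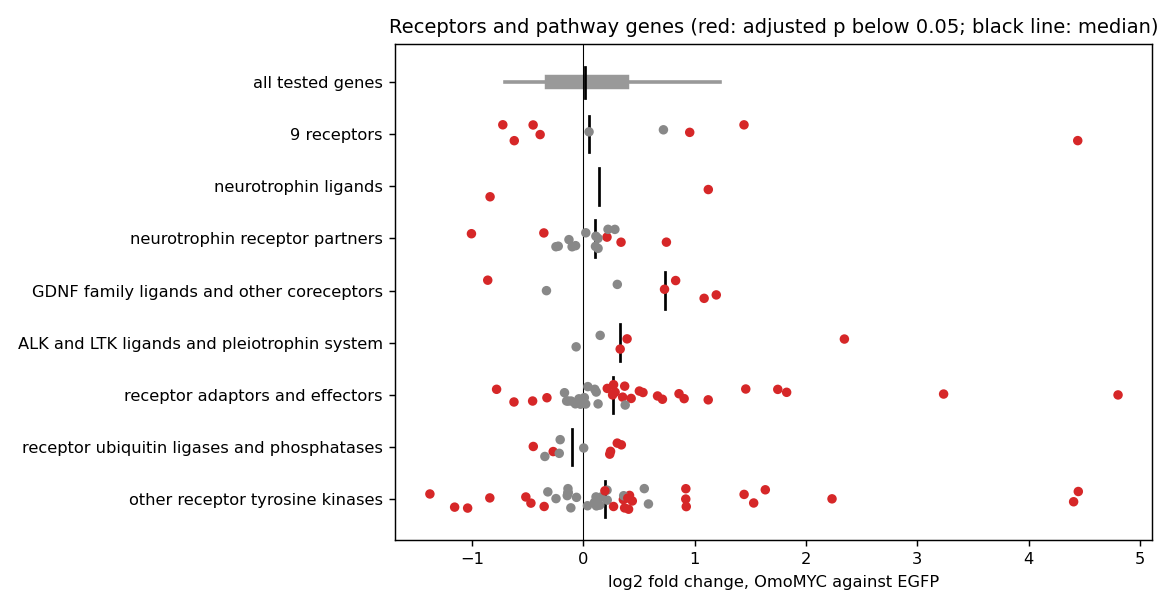
Log2 fold change of OmoMYC against EGFP for the 9 receptors and the tested genes of 7 pathway lists, with red points for an adjusted p below 0.05 and a black line at each median. The top row shows all tested genes, the box from the first to the third quartile and the thin line from the 5th to the 95th percentile. NGFR lies at 4.44 and DOK5 at 4.80, and the list medians range from -0.10 to 0.73.

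The genes whose profile over the 6 libraries lay nearest to each of the 3 receptors with the largest changes among those called were found by the root mean square difference of centred log2 CPM. For NGFR these were NSG2 (0.103), MEF2A (0.170) and KHDRBS2 (0.206), with log2 fold changes of 4.46, 4.32 and 4.15. For LTK they were ATP12A (0.0734), PIGZ (0.0821) and YPEL3 (0.0919), with log2 fold changes of 1.74, 1.61 and 1.29. ATP12A was very scarce, at means of 0.114 CPM in EGFP and 0.386 CPM in OmoMYC cells. For GFRA3 the nearest genes were PHACTR3 (0.0738), NELL1 (0.0904) and ANKRD31 (0.0906), with log2 fold changes of 0.82, 0.90 and 0.96. Similar fold changes follow from choosing genes by their profile over the same libraries.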

How the data were processed

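RNA-seq of rRNA-depleted RNA was analysed in 14 libraries, biological replicates per the study's methods. Reads were trimmed (Cutadapt), mapped to hg19 (STAR) and assigned to genes (FeatureCounts) by the authors. The deposited values are whole counts, not normalized. The annotation and the use of strand are not given in the sources used here. Each experiment was fitted on its own table in R 4.3.3 with edgeR 4.0.16 (filterByExpr, TMM, robust quasi-likelihood test, Benjamini-Hochberg over all tested genes), where 13803 and 14470 genes passed the filter. Alternatives were DESeq2 1.42.0, the tool of the study's methods, limma-voom (3.58.1), other size factors, other filters, a replicate block, a term setting replicates 1 and 2 apart from 3 and 4 in parental cells, and each library left out. Levels per kb used merged exon lengths of GENCODE v44lift37 (GRCh37), which held 16960 of 17810 and 18616 of 19143 identifiers. Intervals are 95% intervals of the fit. Replicate libraries differed by more than sampling of reads. The fits were run on simulated data with 200 genes changed by 1 on the log2 scale and the same spread for all genes. There edgeR called all 200, with 9 false calls in the OmoMYC design and 10 in the dTAG47 design. In the real OmoMYC comparison 53.0% of genes were called and spread differed between genes. The simulation therefore cannot show how well changes of scarce receptors were found.

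The members and lists were chosen with earlier results of these data known. Named are all 9 members, MYC, every tested gene of the 3 ligand lists, from each other list the 4 called genes with the largest change and a mean of at least 1 CPM, and for each of the 3 called members with the largest change the 3 genes of nearest profile. In the OmoMYC table DDR1 carries 4 identifiers, and NCAM1, EPHB6, PIK3R2 and SH2B2 carry 2 each. PIK3R2 also carries 2 in the parental table. The counts of these genes may be split between identifiers. PDPK1 depletion was not analysed here.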

Additional observations from a re-analysis of the deposited data

Results flagged for a closer look

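GFRA1 in DMSO replicate 3, at 206 CPM, stood apart from the other 3 DMSO libraries at 218 to 220 CPM. The gap to the nearest library was 0.854 of the group's range, above Dixon's 95% critical value for 4 libraries. Chance alone passes this limit in about 1 of 20 groups, and each receptor was examined in both parental groups. Without this library the log2 fold change of GFRA1 for dTAG47 against DMSO was -0.0022 in place of 0.02, and GFRA1 was not called in either fit.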

How the results depend on the processing

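The count of 7 receptors called for OmoMYC against EGFP was the same under DESeq2, RLE factors, library size only, both filters and limma-voom. With a replicate block it was 8, RET being added at 0.78 (adjusted p = 0.0287), and with single libraries left out 6 to 8. The labels do not say whether equal numbers pair the libraries, and correlations of so few libraries cannot decide it. Same-numbered libraries, in log2 CPM centred within each group, correlated at 0.127, -0.0993 and 0.433 for EGFP with OmoMYC. The highest correlation of each EGFP library with another number was 0.379, 0.0772 and -0.148. For DMSO with dTAG47 the same-number correlations were 0.0902, 0.296, 0.276 and 0.380. The highest with another number were 0.454, 0.210, 0.392 and 0.281. For dTAG47 against DMSO the count of receptors was 0 in every setting, the replicate block included. The count of pathway genes for OmoMYC was 68, with 77 under the block and 53 to 75 with a library left out. For dTAG47 it was 1, and 2 under DESeq2, 0 with library size only, 6 under the replicate block, 6 with the factor for replicates 1 and 2 against 3 and 4, and 0 to 2 with a library left out. The cause was not tested.

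Reversals concerned values near 0. ALK for dTAG47 was -0.0024 under DESeq2, -0.0024 with RLE factors, -0.010 with library size only, -0.0020 without the filter, -0.00033 with at least 10 counts, -0.00086 under limma-voom, -0.00066 under the block and -0.00084 with the factor. With a library left out, values for dTAG47 ran from -0.032 to 0.042 for ALK, -0.0022 to 0.029 for GFRA1, -0.017 to 0.135 for NGFR, -0.073 to 0.0064 for NTRK3, -0.022 to 0.39 for ARTN, -0.055 to 0.046 for PSPN, -0.069 to 0.44 for GDF15, -0.043 to 0.16 for GDNF and -0.037 to 0.032 for GAS1. For OmoMYC they ran from -0.072 to 0.11 for GFRA2 and -0.50 to 0.13 for FAM150B. Depth limits RET, GFRA3 and NTRK2 most, with at most 92 counts in any library.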

Other observations

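Of the 3 tested genes on either side of NGFR on chromosome 17, chosen after the values were seen, none rose with it. PHB (log2 fold change -0.20, adjusted p = 0.0275) and NXPH3 (-0.88, adjusted p = 0.000746) were lower in OmoMYC cells, while ZNF652, IGF2BP1, SPOP and SLC35B1 lay between -0.15 and 0.05 and were not called.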
